A study of Mus musculus with 95 samples.

Results

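The kidneys of pristane-treated SNF1 mice taken at week 14 were compared with those taken at week 12, over all genes measured. The members were the 9 arrays labelled diseased at week 14 and the 8 labelled diseased at week 12, 17 of the 95 kidney arrays of the series. SNF1 mice are the female F1 offspring of SWR and NZB parents, a cross that is prone to lupus by itself, and the pristane mice had been given the hydrocarbon oil pristane by intraperitoneal injection at 9 weeks of age. They were therefore 23 weeks old at week 14 and 21 weeks old at week 12. The background was the same step in untreated SNF1 mice of the same ages, with 5 kidneys at week 14 and 10 at week 12. All mice carried the lupus-prone background, so the untreated mice were controls for pristane and age but not for strain. Each array held total RNA from homogenized kidney, and the methods do not say whether the entire organ was used. The study ran 2 longitudinal experiments, the labels do not say which mouse came from which, and mice that became moribund were euthanized, so the kidneys at week 14 came from animals that had lived to that week.

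Lupus nephritis begins when immune complexes lodge in the glomeruli and engage complement and Fc receptors. Macrophages, T cells and B-lineage cells then gather in the interstitium, type I interferon switches on its target genes, and injured tubules lose transport and metabolic functions while they start to make injury proteins. In RNA of homogenized kidney, a lower level of a tubular gene can come from fewer tubular cells or from less RNA per cell, and the 2 cannot be told apart.

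Values are log2 RMA intensities, in which 1 unit is a 2-fold difference, and 18.6% of them lay at the floor of 2.21. One probe set stood for each of 17097 genes. A gene was said to have risen or fallen when its adjusted p in limma was under 0.05 over 45037 probe sets, and the number of mice limits how precisely each difference is known. Array medians overlapped, from 4.23 to 4.43 at week 14 and from 4.25 to 4.46 at week 12. Of 35 defining cell type markers, 28 were named on the array. The kidney markers differed in level. Umod of the thick ascending limb was at 13.40 at week 14 and 13.41 at week 12, and Cubn of the proximal tubule at 11.27 at week 14 and 11.94 at week 12. Lower were Aqp2 of principal cells, at 5.52 at week 14 and 5.65 at week 12, and Nphs1 of podocytes, at 5.74 at week 14 and 6.17 at week 12. The muscle marker Acta1 was at 2.25 at week 14 and 2.21 at week 12. The list of 12 adrenal genes, none of which passed, differed between mice within both groups, with a summed linear intensity from 168 to 3229 at week 14 and from 182 to 6359 at week 12. Its mean log2 difference from the week 12 mean was 1.82, 1.18 and 0.81 in week 14 mice 4, 5 and 6, and 2.96 and 1.09 in week 12 mice 4 and 8. The other 12 kidneys lay below 0, and its part in the results was not tested. The list of 7 fat genes summed from 2690 to 5575 at week 14 and from 2194 to 8527 at week 12. None of the fat genes passed, but 7 of 7 were lower at week 14 with a median of -1.10 on the log2 scale, the lowest median of the 58 lists described below, and the list's means overlapped (-1.99 to 0.25 at week 14 and -1.57 to 1.05 at week 12). The part of fat RNA in the results was not tested.

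Between weeks 12 and 14 of pristane, some immune cell, interferon response and chemokine genes rose, and some tubular transport and respiratory chain genes fell. Over 2-fold differences were mostly rises. In all, 91 genes were higher by over 2-fold (0.532% of those tested) and 23 were lower by over 2-fold (0.135%). With no minimum fold, 296 genes were higher (1.73%) and 163 were lower (0.953%), 459 together, with a median absolute log2 fold change of 0.65. The smallest adjusted p was 0.00688 for Slc10a1, and 0.0306 for Lpxn. The labels do not say whether mice shared a cage or an experiment, so these p-values measure the spread between these mice. At unadjusted p under 0.05, 2134 genes were higher (12.5%) and 2155 were lower (12.6%). Probe sets with no single gene name made up 239 of the 864 that passed.

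**Figure D1:**
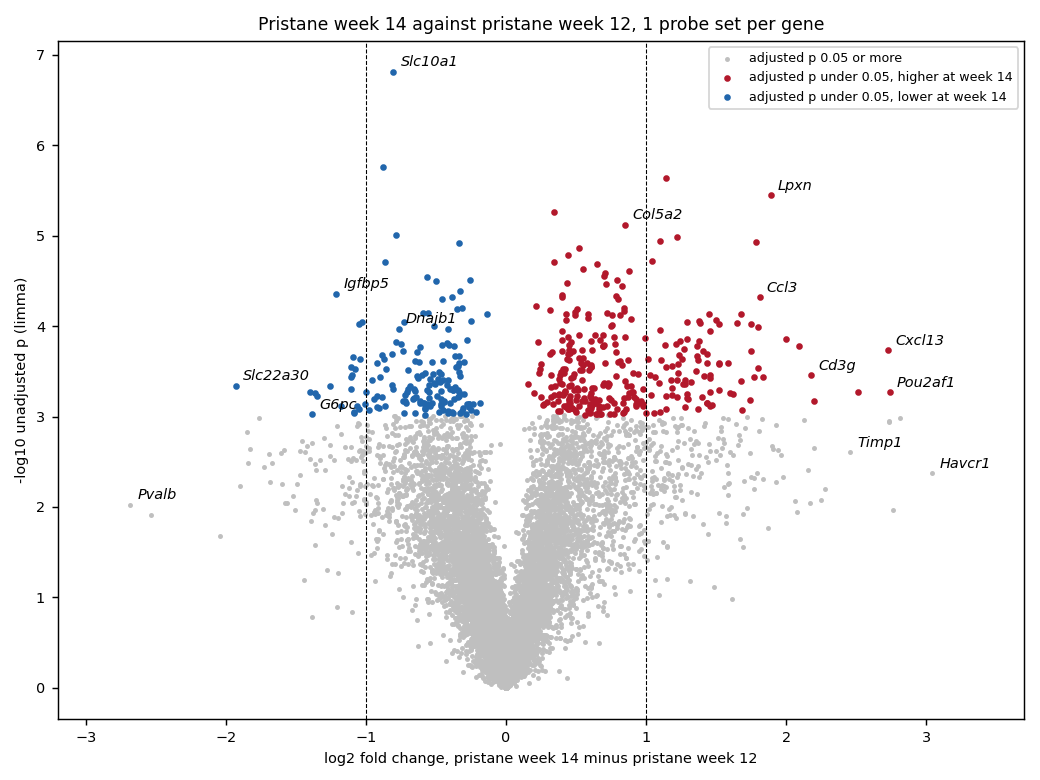
Each point is 1 of 17097 genes, with the log2 fold change of pristane week 14 minus pristane week 12 on the horizontal axis and the negative log10 of the unadjusted limma p on the vertical axis, and dashed lines at 2-fold. The 296 coloured genes on the right were higher and the 163 on the left were lower at adjusted p under 0.05, while Havcr1 and Pvalb lie far out but did not pass.

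Of the 9 week 14 kidneys, 2 stood with the week 12 kidneys. On the first principal component, which held 59.2% of the variance over the 5000 most variable probe sets, week 14 mice 1 and 2 lay at -27.4 and -42.2, among the week 12 mice at -49.0 to -2.88, and the other 7 week 14 mice lay at 24.2 to 62.9. Among the 459 passing genes, mouse 1 was within the week 12 range for 331 and mouse 2 for 317. Among the week 12 mice, mouse 4 had the highest score, at -2.88. Groups that did not overlap were rare, with 19 genes higher in 9 of 9 week 14 mice than in any week 12 mouse (0.111% of genes) and 9 genes lower in all of them (0.0526%).

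The calls depended on single mice. Without week 14 mouse 1 the fit called 1026 genes higher and 1040 lower, and without week 14 mouse 2 it called 1207 higher and 1310 lower. Without week 12 mouse 4 it called 584 higher and 208 lower. Without week 14 mouse 3, 4, 6 or 9, or without week 12 mouse 1, 3, 5 or 8, it called 0 genes higher and at most 2 lower. Without any other mouse it called from 26 to 80 genes higher and from 10 to 35 lower. The 459 genes had the same direction in each of the 17 fits that left out a mouse, with an unadjusted p of at most 0.00247 in any of them. They were chosen in the same mice, so these fits are no independent check of them. Slc10a1 passed in 17 of 17 such fits. Every count of passing genes below carries this dependence.

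**Figure D2:**
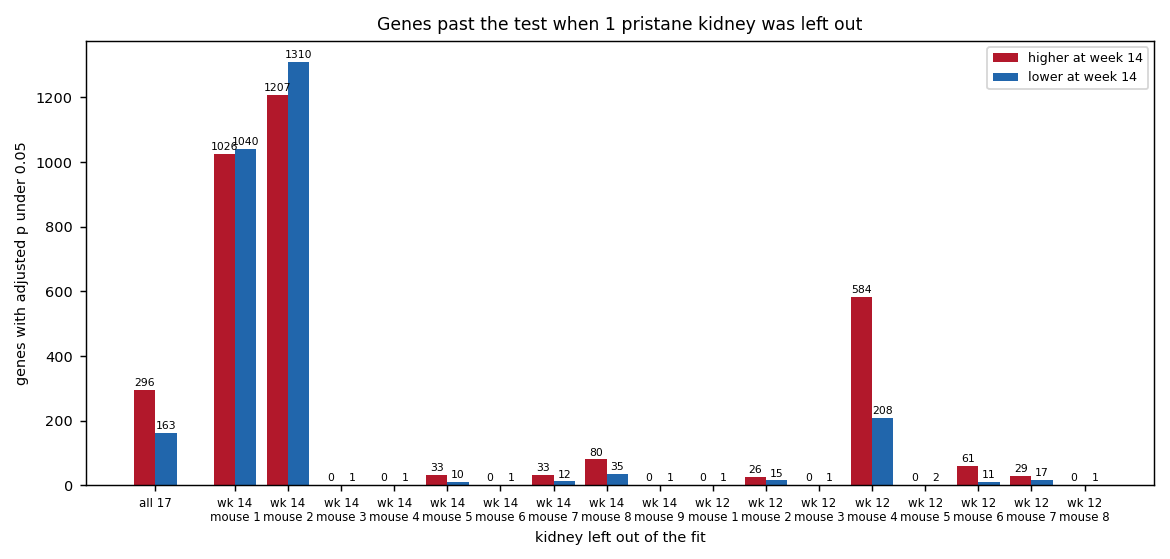
Bars give the number of genes with adjusted p under 0.05 that were higher (red) or lower (blue) at pristane week 14 than at week 12, in the fit of all 17 kidneys and in 17 fits that each left out the named kidney. With all kidneys 296 genes were higher and 163 lower, without week 14 mouse 2 there were 1207 and 1310, and without any one of 8 kidneys 0 genes were higher.

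The 10 largest rises were mostly in genes of B cells, T cells and myeloid cells. Cxcl13, the chemokine that draws B cells into follicles, had 8.09, 11.02 and 12.08 as lowest, median and highest values at week 14, against 6.49, 7.88 and 8.88 at week 12. In all, 7 of 9 week 14 mice were above every week 12 mouse, while mice 1 and 2 lay within the week 12 range. Cxcl13 rose by 2.73 ± 0.56 on the log2 scale (SE, adjusted p = 0.0372), and its other probe set rose too (adjusted p = 0.0445). Such support was uncommon. Of 43 other probe sets for 30 of the 69 passing genes examined, 37 had the same direction and 5 passed. Some of the 37 lay near 0, such as those of Icos (0.08 and 0.16) and Vav1 (0.06). Pou2af1, a transcriptional coactivator of B-lineage cells, had 4.44, 7.64 and 8.90 at week 14 and 3.50, 4.35 and 5.83 at week 12, a rise of 2.74 ± 0.63 (adjusted p = 0.0455) in which mice 1, 2 and 7 overlapped week 12. Cd3g, a subunit of the T cell receptor complex, had 3.96, 6.13 and 7.37 at week 14 against 2.54, 3.69 and 4.77 at week 12. Mice 2 and 7 were the 2 low week 14 kidneys, and the rise was 2.18 ± 0.48 (adjusted p = 0.0423). Cd72, a B cell surface coreceptor, rose by 2.00 ± 0.40 (adjusted p = 0.0372). Lpxn, a focal adhesion adaptor of blood cells, was between 2.63 and 4.99 at week 14 and between 2.22 and 2.90 at week 12, with means of 4.25 at week 14 and 2.36 at week 12, and rose (adjusted p = 0.0306). Most week 12 mice lay near the floor, so the size of that rise was not measured. Fcgr1, the high-affinity receptor for IgG, averaged 6.88 ± 0.92 at week 14 and 5.05 ± 0.76 at week 12 (SD, n = 9 and 8), and 8 of 9 week 14 mice were above every week 12 mouse, mouse 1 being the exception. Ccl3, a chemokine of activated macrophages, rose by 1.81 ± 0.33 (adjusted p = 0.034). The other 3 are not known as immune cell markers. Serpina10, the protein Z-dependent protease inhibitor, rose by 2.51 ± 0.58 (adjusted p = 0.0455). Cyp4a12a, a fatty acid hydroxylase known in mice as the male form of its family, had 2.21, 5.19 and 6.11 at week 14 of these females and 2.21, 2.22 and 3.35 at week 12, with 4 of 8 week 12 mice at the floor, so the rise (means of 4.64 ± 1.43 at week 14 and 2.44 ± 0.43 at week 12, SD, adjusted p = 0.0468) was measured against values at the floor, and near-identical Cyp4a genes may share its signal. Gpr31b, a G protein-coupled receptor, rose by 2.09 ± 0.42 (adjusted p = 0.0372). Its week 12 mean of 2.81 lay near the floor, so the size of that rise is uncertain.

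**Figure D3:**
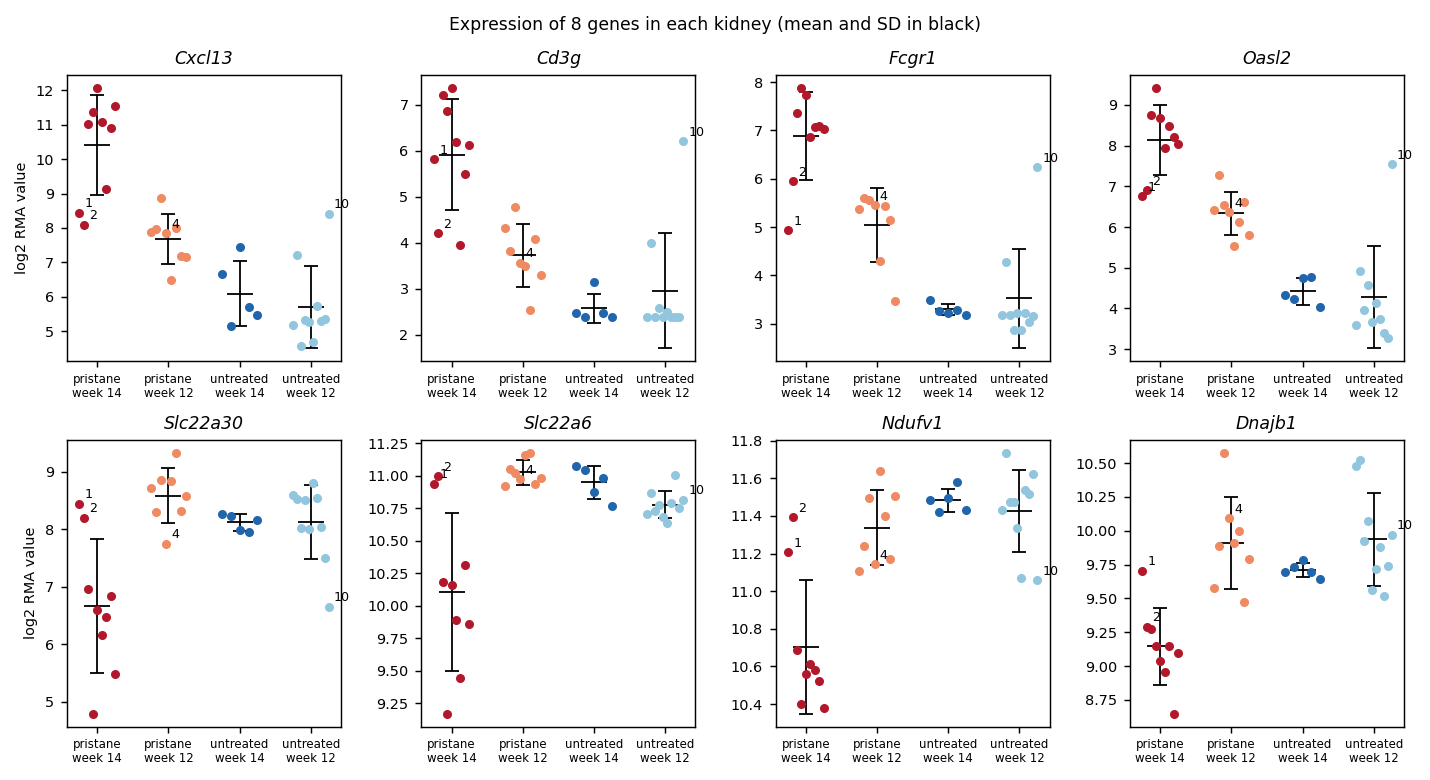
Each point is 1 kidney, with log2 RMA values on the vertical axis, the mean and SD in black, and the 4 groups from pristane week 14 to untreated week 12 on the horizontal axis. Numbers mark week 14 mice 1 and 2, week 12 mouse 4 and untreated week 12 mouse 10, and 7 of 9 week 14 mice lie above all week 12 mice for Cxcl13 and below all of them for Slc22a30.

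Among immune cell lists, members that passed were higher at week 14. Of 22 macrophage and monocyte genes, 4 rose and 0 fell, 19 were higher at unadjusted p under 0.05, and the median log2 fold change was 1.27, where that over all genes was 0. The 4 were Fcgr1, Mpeg1 (1.43), Fcer1g (1.28) and Tyrobp (1.22), the last 2 being adaptors of activating receptors. The defining markers Adgre1 and Csf1r gave 1.26 ± 0.37 (adjusted p = 0.0713) and 0.34 ± 0.12 (adjusted p = 0.122), so neither passed. The mean of this list stood between 1.14 and 1.75 above the week 12 mean in 7 week 14 mice, and at 0.00 and -0.12 in mice 1 and 2, inside the week 12 range of -0.86 to 0.69. The summed linear intensity of the list was 3743 to 13808 at week 14 and 2566 to 7077 at week 12. Of 22 genes of T cells and cytotoxic lymphocytes, 4 rose (Cd3g, Cd3d, Thy1 and the costimulatory receptor Icos) and 16 were higher at unadjusted p, with a median of 0.51. Thy1 rose by 1.80 ± 0.39 (adjusted p = 0.0417) and Icos by 1.68 ± 0.37 (adjusted p = 0.0439). The defining markers did not pass, with Cd3e at 1.12 ± 0.45 (adjusted p = 0.166), Cd8a at 0.36 ± 0.12 (adjusted p = 0.0991) and Cd4 at 0.13 ± 0.08 (adjusted p = 0.406). Of 14 B cell and plasma cell genes, Pou2af1 and Prdm1, the regulator of plasma cell differentiation, rose, and the joining chain gene Jchain stood at 12.88 at week 14 and 11.64 at week 12 without passing (adjusted p = 0.0879). The B cell marker Cd79a gave 0.71 ± 0.26 and did not pass (adjusted p = 0.127). Of 6 dendritic cell genes, Itgax, an integrin that activated macrophages also carry, rose by 1.27 ± 0.26 (adjusted p = 0.0372), while 3 were higher and 3 lower in all and the median was -0.01. None of 10 neutrophil genes passed, their median was 0.06, and Csf3r was at 2.24 at week 14 and 2.21, the floor, at week 12. None of 7 mast cell and basophil genes passed, with a median of -0.02.

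**Figure D4:**
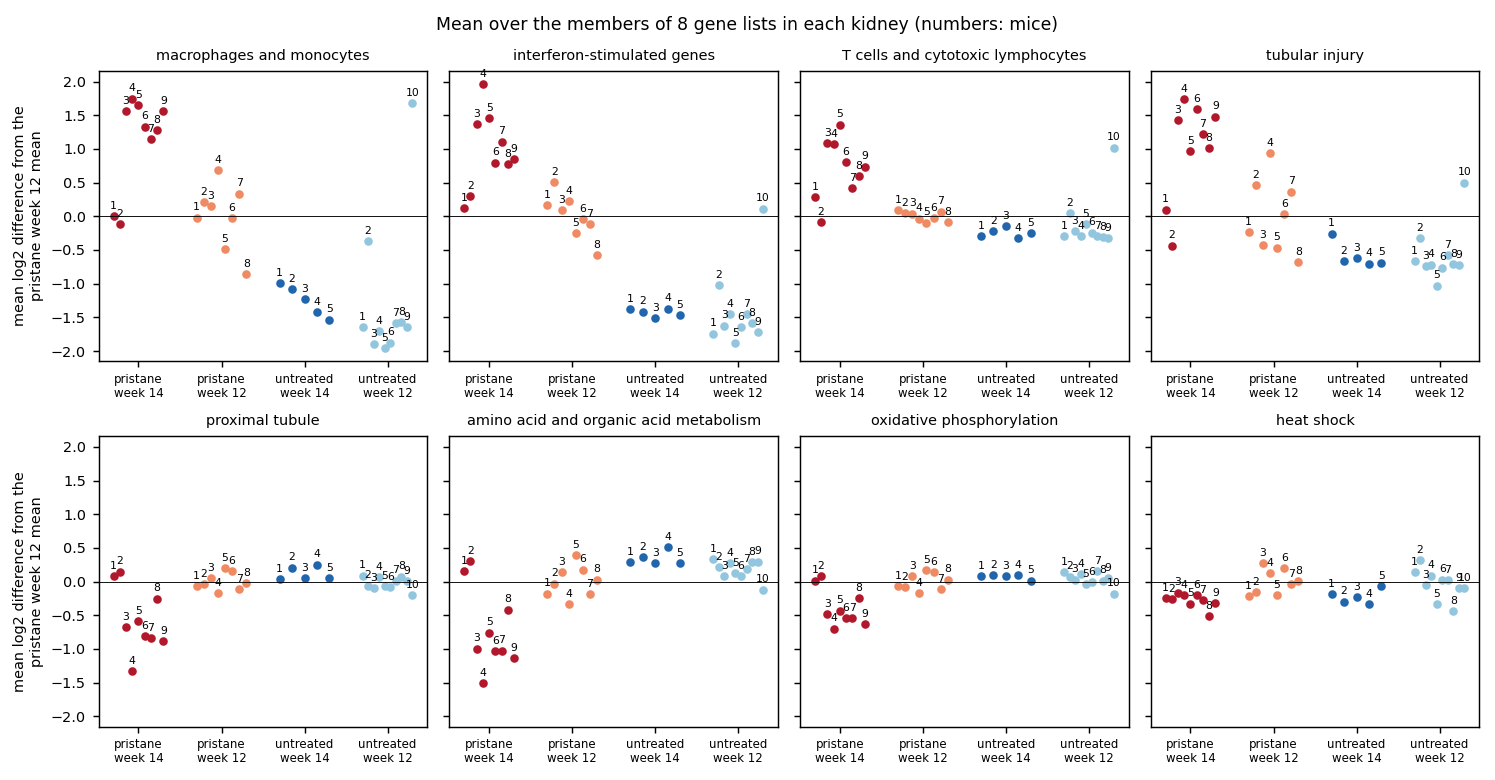
Each point is 1 kidney, numbered by mouse, and the vertical axis is the mean over the members of a list of the log2 difference from the pristane week 12 mean. For macrophage genes 7 week 14 mice stand at 1.14 to 1.75 and mice 1 and 2 near 0, and untreated week 12 mouse 10 stands at 1.68, apart from the other untreated kidneys.

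Interferon-stimulated genes, which encode antiviral effectors and the factors that induce them, had the highest share of passing members among the immune lists. Of 21 measured, 9 rose, 0 fell and 18 were higher at unadjusted p, with a median of 1.02 and a range of 0.29 to 1.80. Oasl2, a homologue of oligoadenylate synthetases, had 6.75, 8.21 and 9.43 at week 14 against 5.53, 6.39 and 7.29 at week 12, and rose by 1.80 ± 0.35 (adjusted p = 0.037). Mice 1 and 2 were the low week 14 kidneys again, and week 12 mouse 2 was the high one of its group. Irf7, the factor that amplifies interferon production, rose by 1.74 ± 0.41 (adjusted p = 0.0468) and Mx1, an antiviral GTPase, by 1.60 ± 0.37 (adjusted p = 0.0455). Ifit1, Ifit2, Rtp4, Xaf1, Irf9 and Ifih1 rose by 0.73 to 1.52. Ifih1, the cytosolic sensor of double-stranded RNA, had 7.64, 8.47 and 9.11 at week 14 and 6.63, 7.30 and 8.02 at week 12, a rise of 1.14 ± 0.23 (adjusted p = 0.0372). Of 12 nucleic acid sensor genes measured, Ifih1 was the 1 that passed. Aim2, a nucleic acid sensor that the paper names, had no probe set assigned to it alone and was not measured. Sting1, the adaptor of cytosolic DNA sensing, had 4.70, 6.97 and 7.14 at week 14 and 4.01, 4.57 and 5.99 at week 12 without passing (1.54 ± 0.40, adjusted p = 0.0545).

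To show the element these genes are known for, promoters from RefSeq (GRCm38.p6) were searched on both strands for the interferon-stimulated response element, as GAAANNGAAA or TTTCNNTTTC, in windows of 250 bases before to 50 after each start. It was present in 1131 of 32851 promoters (3.44%). Among list members, 14 had a promoter in the table, 7 of them held a match, and of the 7 passing members with a promoter 2 held one. The 2 passing members are shown with Oas3, an oligoadenylate synthetase, which gave 0.31 ± 0.35 (adjusted p = 0.689), and Rsad2, the antiviral protein viperin, which gave 0.31 ± 0.12 (adjusted p = 0.147), to set members that passed beside members that did not, with the match in capitals. Starts are those of the promoter table.
Ifit1 (chr19:34640760-34640838, plus strand, before the start): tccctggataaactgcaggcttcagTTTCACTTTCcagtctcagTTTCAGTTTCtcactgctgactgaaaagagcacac
Ifih1 (chr2:62646211-62646226, minus strand, after the start): atcGAAACAGAAAccg
Oas3 (chr5:120777700-120777759, minus strand, before the start): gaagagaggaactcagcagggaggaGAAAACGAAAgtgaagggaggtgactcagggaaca
Rsad2 (chr12:26456538-26456597, minus strand, before the start): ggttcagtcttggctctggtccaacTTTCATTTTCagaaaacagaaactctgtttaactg
A match of letters is a description of the sequence and not a bound site.

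Mediators that recruit and activate immune cells followed the same direction. Of 22 chemokine genes, 4 rose (Cxcl13, Ccl3, Ccl2 and Cxcl14), 15 were higher and 1 was lower at unadjusted p, and the median was 1.13. Ccl2, the monocyte chemokine, had 4.85, 7.07 and 7.81 at week 14 and 4.54, 5.17 and 5.44 at week 12, with mouse 1 the lowest and the other 8 above every week 12 mouse, and rose by 1.59 ± 0.34 (adjusted p = 0.0398). Of 9 Fc gamma receptor and signalling genes, Fcgr1, Fcer1g and the exchange factor Vav1 rose, with a median of 1.16. None of 12 complement genes passed although 11 were higher at unadjusted p, with a median of 0.98, and C3ar1, the C3a receptor, was nearest at 1.71 ± 0.44 (adjusted p = 0.0532). That was the probe set standing for C3ar1. The 2 other C3ar1 probe sets did pass, at 2.52 (adjusted p = 0.0306) and 1.79 (adjusted p = 0.0428). Of 7 class II antigen presentation genes 0 passed, with H2-Ab1 at 11.09 at week 14 and 10.05 at week 12 (adjusted p = 0.0796). Of 5 class I genes H2-T23 rose by 0.65 ± 0.16 (adjusted p = 0.0493). Casp1, the caspase that matures interleukin-1, rose by 1.36 ± 0.28 (adjusted p = 0.0372), Itga4, an integrin of leukocyte homing, by 1.68 ± 0.31 (adjusted p = 0.0358), Psmb9, an immunoproteasome subunit, by 1.18 ± 0.27 (adjusted p = 0.0453), and the lysosomal proteases Ctss and Ctsk by 1.32 ± 0.29 (adjusted p = 0.0443) and 1.29 ± 0.26 (adjusted p = 0.0372). The 2 other Psmb9 probe sets gave -0.18 (adjusted p = 0.329) and 1.44 (adjusted p = 0.0523).

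Genes of tubular injury had large differences and wide spread. None of 22 passed, 18 were higher at unadjusted p, and the median was 0.92. Havcr1, which encodes the injury molecule KIM-1 of proximal tubules, had 4.15, 9.58 and 10.82 at week 14 against 4.09, 5.95 and 8.77 at week 12. Week 14 mouse 2 was as low as the lowest week 12 mice and week 12 mouse 4 was level with week 14 mouse 5. The difference of 3.04 ± 0.91 did not pass (adjusted p = 0.0744). Vcam1 gave 1.54 ± 0.39 (adjusted p = 0.0531) and Anxa1 1.11 ± 0.28 (adjusted p = 0.0525). Of 13 acute phase genes 0 passed, with ceruloplasmin (Cp) at 1.82 ± 0.45 (adjusted p = 0.0512), Saa1 at means of 4.26 at week 14 and 2.54 at week 12, where 5 of 8 mice were at the floor (adjusted p = 0.108), and Saa3 at 0.38 ± 0.81 (adjusted p = 0.897). S100a8 and S100a9, the calgranulin subunits of myeloid cells, gave 0.42 ± 0.46 (adjusted p = 0.663) and 0.44 ± 0.41 (adjusted p = 0.628).

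Matrix genes were mostly higher and few passed. Col5a2, a fibrillar collagen chain, had 8.59, 9.20 and 9.61 at week 14 against 8.01, 8.25 and 8.64 at week 12, with mouse 1 the single overlap, and rose by 0.85 ± 0.13 (adjusted p = 0.0324), the 1 of 18 collagen genes to pass. The median over collagens was 0.86 with 12 higher at unadjusted p. S100a4, a calcium-binding protein of fibroblasts and leukocytes, rose by 1.24 ± 0.25 (adjusted p = 0.0372), the 1 of 24 matrix and fibroblast genes. Timp1, an inhibitor of matrix metalloproteinases, had 5.61, 7.97 and 9.18 at week 14 and 3.51, 4.90 and 8.04 at week 12, where mouse 4 stood far above its group, and gave 2.46 ± 0.68 (adjusted p = 0.0628). Timp3, of the same family, fell by 0.45 on the log2 scale (SE 0.10, adjusted p = 0.0436). Tnc gave 1.57 ± 0.55 (adjusted p = 0.119), Acta2, smooth muscle actin, 0.98 ± 0.42 (adjusted p = 0.203), and Fbn2 0.16 ± 0.20 (adjusted p = 0.734). The 1 probe set named for Col1a2 lay near the floor in both groups and gave 0.20 ± 0.13 (adjusted p = 0.464).

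The 10 largest falls were in genes of differing roles. Slc22a30, a kidney organic anion transporter, had 4.79, 6.59 and 8.45 at week 14 against 7.75, 8.65 and 9.33 at week 12. Mice 1 and 2 sat among the week 12 mice and the other 7 below all of them, and the gene fell by 1.93 on the log2 scale (SE 0.44, adjusted p = 0.0447). H3c14, of a family of near-identical histone genes that a probe set may not tell apart, fell by 1.40 (SE 0.32, adjusted p = 0.0455). G6pc, the glucose-6-phosphatase of gluconeogenesis, had 7.64, 9.27 and 10.55 at week 14 and 10.34, 10.63 and 11.07 at week 12, and fell by 1.39 (SE 0.34, adjusted p = 0.0496). Slc25a42, the mitochondrial carrier of coenzyme A, fell by 1.37 (SE 0.32, adjusted p = 0.0455), the glycosyltransferase gene B4galnt2 by 1.35 (SE 0.31, adjusted p = 0.0466), and the carboxylesterase gene Ces2g by 1.11 (SE 0.24, adjusted p = 0.0428). The membrane progestin receptor genes Paqr9 and Paqr7 fell by 1.26 (SE 0.28, adjusted p = 0.0447) and 1.11 (SE 0.24, adjusted p = 0.041). Igfbp5, which binds insulin-like growth factors, had 7.98, 8.76 and 9.72 at week 14 and 9.64, 9.96 and 10.20 at week 12, with mouse 1 the single overlap, and fell by 1.21 (SE 0.22, adjusted p = 0.034). Mcrip2 fell by 1.18 (SE 0.28, adjusted p = 0.0479).

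Several proximal tubule and respiratory chain genes fell. Of 34 proximal tubule genes, 4 fell, 0 rose and 24 were lower at unadjusted p, with a median of -0.62. The 4 were solute carriers, Slc22a30, Slc22a6, Slc22a2 and Slc17a1. Slc22a6, the basolateral organic anion transporter OAT1, averaged 10.11 ± 0.61 at week 14 and 11.03 ± 0.10 at week 12 (SD, n = 9 and 8), and fell by 0.92 (SE 0.21, adjusted p = 0.0466), a difference in which mice 1 and 2 were level with week 12. Of 29 oxidative phosphorylation genes, 8 fell and 27 were lower at unadjusted p, with a median of -0.36 and a range of -0.66 to -0.13. They came from each of the complexes I to V, with Ndufa9 and Ndufv1 of complex I, Sdha of complex II, Uqcrc1 of complex III, Cox5a, Cox5b and Cox7a2 of complex IV and Atp5g1 of the ATP synthase. Ndufv1 had 10.38, 10.58 and 11.39 at week 14 and 11.11, 11.32 and 11.64 at week 12 and fell by 0.63 (SE 0.14, adjusted p = 0.0423), and Uqcrc1 fell by 0.66 (SE 0.15, adjusted p = 0.0453). Of 31 amino acid and organic acid metabolism genes, Ddo, D-aspartate oxidase, fell by 1.09 (SE 0.26, adjusted p = 0.0493), while 28 were lower at unadjusted p and the median was -0.63. Of 25 fatty acid oxidation and peroxisome genes, Etfdh fell by 0.53 (SE 0.13, adjusted p = 0.0472), 20 were lower at unadjusted p and the median was -0.48. None of 17 citric acid cycle and mitochondrial genes passed, with a median of -0.27, and the 18 gluconeogenesis and glycolysis genes had a median of 0.04, with 4 higher and 8 lower at unadjusted p, although G6pc and Gapdh fell. The proximal tubule list summed to 57866 to 111028 in linear intensity at week 14 and to 95054 to 115857 at week 12. The 7 week 14 kidneys with low proximal tubule list means (-1.33 to -0.25) were the 7 with high macrophage list means, and the part of added immune cell RNA in the falls was not tested. When single mice were left out, the lists' counts of falling genes ran from 0 to 20 for the proximal tubule, to 23 for oxidative phosphorylation, to 23 for amino acid metabolism and to 18 for fatty acid oxidation. Gapdh, often taken as a constant control gene, averaged 13.41 at week 14 and 13.60 at week 12 and fell by 0.18 (SE 0.04, adjusted p = 0.0472).

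**Figure D5:**
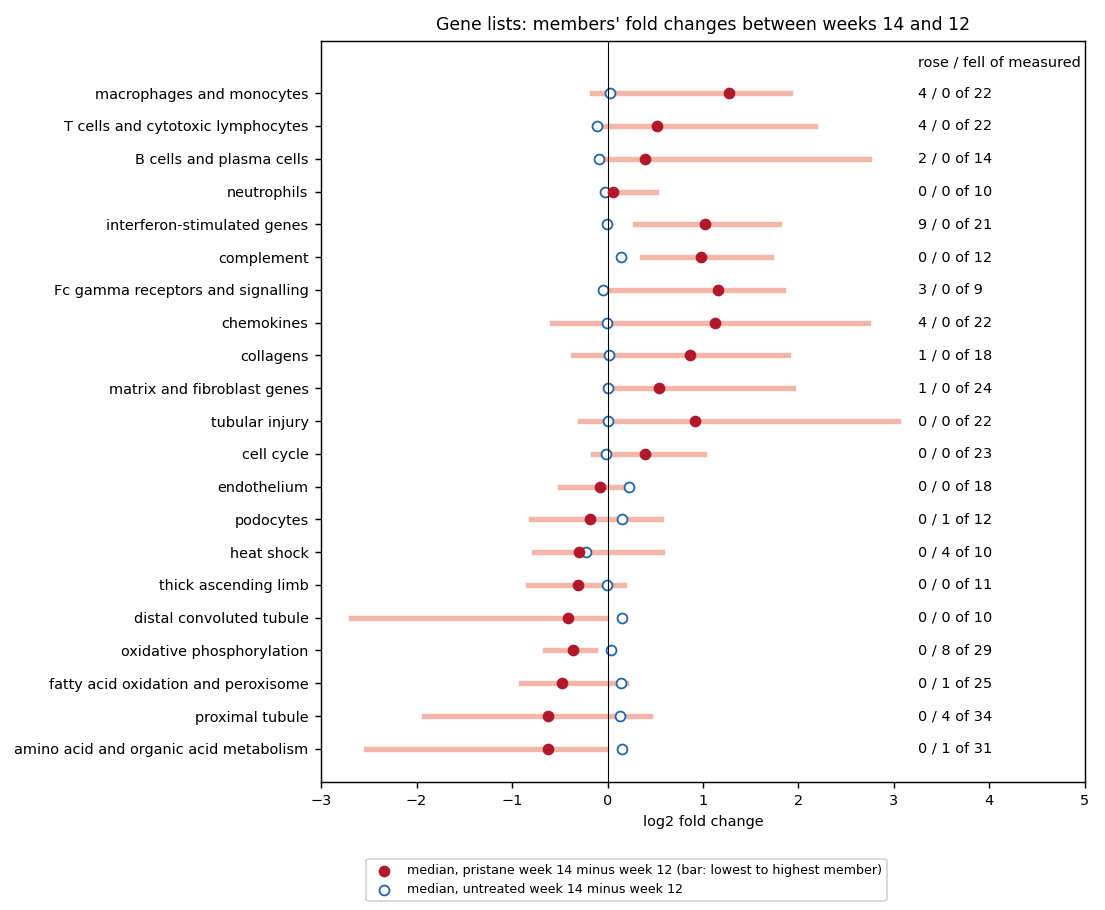
Red points are the median log2 fold change of each list's measured members for pristane week 14 minus week 12, bars run from the lowest to the highest member, open points are the untreated medians, and the numbers at the right are members that rose, members that fell and members measured. The macrophage list has the highest median, 1.27, neutrophils lie at 0.06, and oxidative phosphorylation and amino acid metabolism lie at -0.36 and -0.63.

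Other nephron segments gave few passing genes. None of 11 thick ascending limb, 10 distal convoluted tubule, 11 principal cell, 10 intercalated cell or 18 endothelial genes passed. Most of these lists still leaned lower. At unadjusted p under 0.05, 6 thick ascending limb (median -0.31), 6 distal convoluted tubule (-0.41) and 5 intercalated cell genes (-0.44) were lower. Among principal cell genes 2 were lower and 1 higher (-0.13), and 4 endothelial genes were lower (-0.08). Pvalb, parvalbumin of the distal convoluted tubule, had 3.76, 7.50 and 10.93 at week 14 against 8.85, 10.37 and 11.22 at week 12. In all, 6 week 14 mice were below every week 12 mouse and mice 1 and 2 were among the highest. The difference of -2.68 ± 0.91 did not pass (adjusted p = 0.104). Egf gave -0.68 ± 0.24 (adjusted p = 0.122), the anion exchanger gene Slc4a1 -1.23 ± 0.44 (adjusted p = 0.121), and the vascular growth factor receptor gene Kdr -0.50 ± 0.13 (adjusted p = 0.0517). Of 12 podocyte genes, Synpo, an actin-associated protein of foot processes, fell by 0.61 (SE 0.15, adjusted p = 0.0472), and Nphs1 gave -0.43 ± 0.19 (adjusted p = 0.202). None of 23 cell cycle genes passed, with a median of 0.39.

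Heat shock genes that passed fell. Of 10 measured, 4 fell and 0 rose, with a median of -0.29. Dnajb1, a co-chaperone of HSP70, had 8.65, 9.15 and 9.71 at week 14 against 9.47, 9.90 and 10.57 at week 12, and 8 of 9 week 14 mice were below every week 12 mouse. It fell by 0.77 (SE 0.15, adjusted p = 0.0372), and Hsph1, an HSP110 chaperone, by 0.71 (SE 0.17, adjusted p = 0.0472), Dnaja1 by 0.61 (SE 0.13, adjusted p = 0.0372) and Hsp90aa1, a cytosolic HSP90, by 0.35 (SE 0.06, adjusted p = 0.0358). Week 14 mice 1 and 2, whose macrophage and proximal tubule list means lay inside the week 12 range, had heat shock list means of -0.24 and -0.26, against -0.52 to -0.16 in the other 7 week 14 mice and -0.21 to 0.27 in the week 12 mice. The next 3 genes were picked after their values were seen. Chordc1, an HSP90 cochaperone, had 9.96, 10.43 and 10.62 at week 14 and 10.72, 10.90 and 11.13 at week 12 and fell by 0.50 (SE 0.09, adjusted p = 0.0324) with no overlap of the groups. Ahsa2 fell by 0.78 (SE 0.12, adjusted p = 0.0324), also without overlap, and Hspa4l by 0.87 (SE 0.14, adjusted p = 0.0324). The untreated step of this list had a median of -0.23, of the same sign. The heat shock element, searched on both strands as GAANNTTCNNGAA or TTCNNGAANNTTC, was present in 198 of 32851 promoters (0.603%), in 2 of 7 list members with a promoter and in 1 of 3 of those that fell. Of the 3 genes picked after their values were seen, Ahsa2 and Hspa4l held no match. The site of the matching list member that fell and that of Chordc1, which holds 3 overlapping matches, are shown because they belong to the genes described, with the matched bases in capitals.
Hsph1 (chr5:149636287-149636303, minus strand, after the start): agaTTCTGGAAAGTTCt
Chordc1 (chr9:18292260-18292288, plus strand, across the start): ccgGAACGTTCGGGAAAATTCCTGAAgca
The smallest p of the comparison belonged to Slc10a1, a bile acid transporter best known from liver. It had 4.29, 4.48 and 4.74 at week 14 and 4.93, 5.26 and 5.67 at week 12, low values on this array, and fell by 0.80 (SE 0.09, adjusted p = 0.00688) with all 9 week 14 mice below all 8 week 12 mice. It was picked after its values were seen, and its second probe set gave a difference of 0.

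A few other lists held passing genes in either direction. The ribosomal protein genes Rpl13 and Rps24 rose by 0.37 ± 0.09 (adjusted p = 0.0491) and 0.23 ± 0.05 (adjusted p = 0.0372), 2 of 17 measured. Mt1, a metallothionein, rose by 0.69 ± 0.14 (adjusted p = 0.0372) and Ftl1, ferritin light chain, fell by 0.29 (SE 0.07, adjusted p = 0.0496). They were the passing members among 17 oxidative stress and metallothionein genes. Anxa5, which binds phosphatidylserine on dying cells, rose by 0.69 ± 0.17 (adjusted p = 0.0482) and Samhd1, a nucleotide hydrolase, by 0.81 ± 0.17 (adjusted p = 0.0396). Hspa5, the chaperone BiP of the endoplasmic reticulum, fell by 0.40 (SE 0.09, adjusted p = 0.0453), Srebf2, the regulator of cholesterol synthesis, by 0.35 (SE 0.07, adjusted p = 0.041), and Egln1, the oxygen-sensing prolyl hydroxylase, by 0.59 (SE 0.14, adjusted p = 0.0472). Anxa5 was the 1 of 14 lipid and apoptotic cell handling genes to pass, and Samhd1 the 1 of 6 genes of the DNase list. Hspa5 was the 1 of 16 unfolded protein response genes. Srebf2 was the 1 of 13 cholesterol synthesis genes and Egln1 the 1 of 11 hypoxia genes. Of the 58 lists, 27 had no passing member, 19 had members that rose and none that fell, 11 the reverse and 1 both. Over all genes 1.73% rose and 0.953% fell, so 1 passing member is by itself no result about its list.

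The same 2 weeks were then examined without pristane. In untreated kidneys 0 of 17097 genes passed (0%) and 2034 had an unadjusted p under 0.05 (11.9%), with a smallest adjusted p of 0.147 in limma over 5 and 10 mice. Untreated week 12 mouse 10 stood apart, with macrophage genes summing to 15237 against at most 3492 in the other 9 untreated week 12 mice and Timp1 at 8.02 against at most 3.51. Without it 0 genes passed and the median untreated step of macrophage genes was 0.38, and 0.03 with it. The largest untreated differences by p were Dzip1 at 0.63 ± 0.09 and Id3, an inhibitor of helix-loop-helix factors, at 0.62 ± 0.11, and neither passed. Cxcl13 averaged 6.10 in untreated week 14 kidneys and 5.70 in untreated week 12 kidneys, and Slc22a30 8.12 in both. Oasl2 averaged 4.42 in untreated week 14 kidneys and 4.28 in untreated week 12 kidneys, both below either pristane mean.

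The difference between the pristane step and the untreated step was tested directly. No gene passed (0%), 3392 had an unadjusted p under 0.05 (19.8%), and the smallest adjusted p was 0.0703. A rise or fall that passed in pristane kidneys was therefore not shown to differ from the untreated step. Thy1 (2.09 ± 0.49) and Gimap7 (1.33 ± 0.29), a GTPase of lymphocytes, were among the 5 genes with the smallest p in the higher direction, and the transcription factor gene Etv1 (-1.07 ± 0.18) and the endocytic adaptor gene Dab2 (-0.80 ± 0.16) among the 5 in the lower. Thy1 was at 2.78 with an SD of 0 in untreated week 14 kidneys, so the size of its untreated step was not measured. Without untreated week 12 mouse 10, 2 genes passed. Without pristane week 14 mouse 1, 207 genes were higher and 1072 lower, and without week 14 mouse 2, 293 were higher and 1363 lower.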

How the data were processed

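The series held 95 kidney arrays (Affymetrix HT MG-430 PM), of which 17 pristane and 15 untreated arrays were used. Per the submitters' processing notes the authors summarised probes by RMA in Partek and deposited log2 values. No array was left out, and no 2 arrays were identical (highest correlation 0.998). Of 45141 probe sets, 104 Affymetrix controls were left out. Gene names came from the platform annotation: 28898 probe sets had 1 gene, 551 several and 15588 none listed. The probe set brightest on average across the 95 arrays stood for each gene. Positions and promoters were from RefSeq GRCm38.p6. Groups were compared with limma 3.58.1 in R 4.3.3 (lmFit, eBayes, two-sided), without filter or covariate, with Benjamini-Hochberg adjustment over 45037 probe sets. Genes passed at adjusted p under 0.05, and over 2-fold where stated. The script was tested on simulated data. Of 984 list entries, 862 were measured. Named were the 10 largest rises and falls among passing genes over 2-fold, up to 3 passing members of each list with the largest change or up to 2 with the smallest p where none passed, genes of the study's text, and the 5 smallest p in each direction of the untreated step and of the difference of steps. Other list members, defining markers, Chordc1, Ahsa2, Hspa4l and Slc10a1 were named after their values were seen. The members and lists were chosen with earlier results of these data known. Same-numbered untreated mice deviated together in 5 of 5 pairs (correlations 0.156 to 0.618) and same-numbered pristane mice did not (-0.374 to 0.606). Alternatives were array centring, quantile normalisation, a filter on low probe sets, a fit of all groups, a mean-variance trend, a weight per group, the replicate block, the mean over a gene's probe sets and leaving out each mouse.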

Additional observations from a re-analysis of the deposited data

Results flagged for a closer look

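Among 141 genes examined in both pristane groups, 20 of 282 groups held 1 mouse far from the others for the group's range. The rate set for chance alone was about 1 in 20, and it was not estimated from these values. Where the other mice shared 1 value, a small gap was enough for a flag. Log2 values are given with the nearest other mouse of the same group. At pristane week 14 these were Lpxn in mouse 2 at 2.63 (next 3.80), the noradrenaline enzyme gene Dbh in mouse 3 at 3.06 (next 3.50), the basophil protease gene Mcpt8 in mouse 3 at 2.91 (next 3.32), Fbn2 in mouse 7 at 4.22 (next 3.52), the neutrophil granule gene Ngp in mouse 8 at 6.22 (next 3.34) and the replication gene Mcm3 in mouse 9 at 4.03 (next 3.65). At pristane week 12, mouse 1 stood apart for Fbn2 at 3.94 (next 3.30), Gapdh at 13.4 (next 13.6) and Gimap7 at 3.88 (next 3.53), and mouse 3 for Ces2g at 7.15 (next 6.79) and Lpxn at 2.90 (next 2.53). Week 12 mouse 4 stood apart for Col1a2 at 2.55 (next 2.23), the aldosterone synthase gene Cyp11b2 at 2.37 (next 2.21) and Saa1 at 4.45 (next 2.43). Week 12 mouse 5 did so for Tnnt3 at 2.47 (next 2.46), mouse 6 for Cpa3 at 2.90 (next 2.64) and Dab2 at 11.3 (next 11.02), mouse 7 for Mcm3 at 3.50 (next 3.37), and mouse 8 for Dbh at 4.35 (next 3.71) and Styx at 8.23 (next 8.63). In the untreated groups 1 mouse stood apart for 12 of the 141 genes at week 14 and for 51 at week 12, and in 44 of those 51 it was mouse 10.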

How the results depend on the processing

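The counts of genes over 2-fold (91 higher and 23 lower at pristane week 14) moved by over 1.5 times under most alternatives. They were 199 and 44 with arrays centred on their medians, 171 and 55 after quantile normalisation, 239 and 100 above the 40th percentile of signal, and 282 and 117 in a fit of all 11 groups. They were 296 and 163 with no minimum fold, 0 and 0 at adjusted p under 0.01, and 0 and 0 with the replicate block, although the numbers did not pair the pristane mice. They stayed within 1.5 times with a mean-variance trend (86 and 19) and with 1 weight per group (128 and 30). That weight was shared by all mice of a group, so no single mouse was given less weight. Leaving out 1 mouse gave 0 to 347 higher and 0 to 166 lower. List members that rose and fell (38 and 26) were 108 and 40 after centring, and 0 to 204 and 0 to 152 without 1 mouse. In untreated mice, centring called 1 gene higher, and leaving out 1 mouse 0 to 7 higher and 0 lower. The difference of steps was counted with no minimum fold. It gave 77 higher and 574 lower above the 40th percentile, 721 and 1797 with all groups, 0 to 293 and 0 to 1363 without 1 mouse, and 0 and 0 with the replicate block, which changed no call there or in the untreated step. The 69 named genes that passed were chosen in these same data, so a kept direction is no independent check. Of them, 0 changed direction under these alternatives, and 16 lost the call when all probe sets of a gene were averaged. The cause of these moves was not tested. Spread between 17 mice, and the floor for weakly hybridised genes, limit the calls.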
